A study of Mus musculus with 4 samples.

Results

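The genes described here encode the nuclear part of the oxidative phosphorylation system, the chain of inner membrane complexes that moves electrons to oxygen and uses the resulting proton gradient to make ATP. They were taken by symbol: names that begin with Nduf, Uqcr, Atp5, Sdh followed by a to d or Cox followed by 4 to 8, together with Cycs and Cyc1. The rule found 96 genes among the 18193 genes that a probe set with 1 gene symbol represents on the array. It takes in the assembly factors named Ndufaf and Sdhaf as well as the subunits proper, so 12 of the members help to build complexes I and II and are not part of them. Each gene was read from its probe set with the highest mean log2 signal over the 4 arrays. A probe set was tested if that mean lay above the median of all probe sets, a signal of 65.9, and 91 of the 96 members passed, against 11055 genes in all.

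The arrays compared sorted basal cells of the epidermis, taken from E16.5 mouse embryos. All embryos carried K14-Cre, a recombinase driven by a basal keratinocyte promoter, together with a ROSA26 YFP fl/fl reporter. In the group called cKO both alleles of the transcription factor gene were floxed (SRF fl/fl), and in the group called het 1 allele was (SRF fl/+); the design text calls the latter wild type, and no group lacked Cre. The strain label of the het samples reads only Rosa26. Sorting used YFP and α6 integrin, a surface protein of basal cells. Each group has 2 samples, and their titles share 2 numbers: het_1210 and Ko_1210 carry what is called the first number here, het_1261 and KO_1261 the second. Values given as a pair for a group are in that order. No label says what the numbers mark or whether a sample is 1 embryo or a pool, so p-values measure only the spread between these samples, which may be technical.

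Complex I (NADH dehydrogenase) and complex II (succinate dehydrogenase) feed electrons to ubiquinone, complex III (the cytochrome bc1 complex) passes them to cytochrome c, and complex IV (cytochrome c oxidase) gives them to oxygen. ATP synthase uses the proton gradient. Most subunits are nuclear genes, and the transcription factors NRF1 and GABP are known to bind many of their promoters. A few complex IV subunits have muscle, testis or lung isoforms that stand in for the widely expressed form. SRF itself is best known for cytoskeletal and immediate early genes.

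In het the signal of Srf was 834 and 1108, and in cKO 47.9 and 80.4, so the transcript was low on both cKO arrays; whether this probe set lies in the floxed part is not known here. All 6 basal epidermal markers were above the filter on average, with a summed signal of 150538 and 112408 in het and 145480 and 109421 in cKO. The 8 dermal fibroblast markers summed to 46478 and 39253 in het and 34678 and 36063 in cKO, and 3 of the 8 (Col3a1, Twist2 and Vim) fell in a fit with the title number as a block (adjusted p under 0.05, limma), as did 3 of 4 spinous markers (Krt1, Krt10 and Sbsn) and the immune marker Laptm5. Of the other fibroblast markers Col1a1, Col1a2 and Lum were at -0.71, -0.58 and -0.63 (log2), Dcn was at 0.06 and Pdgfra at 0.75, and none of them passed. Melanocyte, endothelial and immune markers had 3 of 6, 4 of 6 and 2 of 6 members above the filter, and brown fat and erythroid markers 0 of 3 each. The part of these other cells in the results was not tested, and in bulk samples fewer cells of a type and less RNA per cell cannot be told apart. Poly-A control transcripts were 2.45-fold brighter on het_1210 than on het_1261, and the ratio of Ko_1210 to KO_1261 was 2.52.

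Many promoters of the members, but not all, hold sequence features that the rule did not use. RefSeq promoter windows (GRCm38.p6, 250 bases before the start to 50 after it) were matched for 79 of the 96 members by gene identifier. The NRF1-type core GCANGCGC, searched on both strands, was found in 30 of these 79 windows (38.0%) and in 10.8% of the windows of all 27025 genes. The ETS core CCGGAAG, of the kind GABP binds, was found in 22 of 79 (27.8%) against 9.93%, and one or the other in 43 of 79 (54.4%) against 18.7%. The windows of all genes were not matched to those of the members in base composition or expression. The CArG box, the letters SRF binds, was in 0 of the 79 windows and in 1.81% of all; this says only that those letters are not in these windows. Matches of GCANGCGC on opposite strands can overlap each other, as in Atp5g2.

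The sequences below show these features in cytochrome c and in 3 of the 4 subunits of complex II, whose values are compared further on, and in the complex I subunit Ndufa6. Each is the 120 bases just before the start site, 5′ to 3′ on the gene's strand, with matches to GCANGCGC and, in Sdhd, to the reverse complement of CCGGAAG in capitals. The builds and positions are GRCm38.p6 for all: Cycs at chr6:50566570-50566689 on the minus strand, Sdha at chr13:74350241-74350360 on the minus strand, Sdhb at chr4:140961151-140961270 on the plus strand, Sdhd at chr9:50603850-50603969 on the minus strand and Ndufa6 at chr15:82354292-82354411 on the minus strand.
Cycs: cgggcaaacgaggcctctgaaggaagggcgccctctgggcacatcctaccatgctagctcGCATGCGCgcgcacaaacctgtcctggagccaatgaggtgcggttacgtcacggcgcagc
Sdha: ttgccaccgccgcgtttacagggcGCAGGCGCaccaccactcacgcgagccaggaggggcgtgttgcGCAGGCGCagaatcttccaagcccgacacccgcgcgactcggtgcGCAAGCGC
Sdhb: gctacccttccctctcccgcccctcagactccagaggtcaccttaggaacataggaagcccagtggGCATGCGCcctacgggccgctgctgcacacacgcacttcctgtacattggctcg
Sdhd: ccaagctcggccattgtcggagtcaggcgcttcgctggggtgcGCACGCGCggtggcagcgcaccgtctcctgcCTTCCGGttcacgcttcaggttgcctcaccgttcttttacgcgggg
Ndufa6: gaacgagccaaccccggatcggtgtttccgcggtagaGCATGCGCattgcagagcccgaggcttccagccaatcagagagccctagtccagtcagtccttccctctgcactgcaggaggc

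Loss of Srf came with no called change in any of the 91 tested genes. In limma without a block 0 members passed Benjamini-Hochberg adjustment over all tested probe sets, and 0 had an unadjusted p under 0.05. With the title number as a block, a term that takes out the mean difference between the numbers, 0 passed either, and 2 (Cox6a2 and Ndufa4l2) had an unadjusted p under 0.05; Cox6a2 met the filter only through het, and nothing is read from its p. Over all 11055 tested genes the share called was 0% in each direction without the block, and 0.253% higher and 0.615% lower with it. An unadjusted p under 0.05 was seen for 66 of these genes without the block and for 980 with it. Srf itself, at -3.93 (log2), did not pass without the block and passed with it (adjusted p = 1.2e-12, limma). The fit without the block thus called no gene at all, and its 0 does not show that the members were unchanged. The median difference, cKO minus het on the log2(signal + 1) scale, was -0.08 over the members and -0.02 over all tested genes. The lower and upper quartiles of the members were -0.13 and -0.03, and 76 of 91 were below 0 (83.5%, against 53.8% of all tested genes).

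The small shift below 0 was seen within 1 of the title numbers. Within the first number the median of the members was -0.17 and 79 of 91 were lower in cKO, against -0.03 and 53.3% for all tested genes. Within the second number it was 0.01, with 38 lower and 53 higher, against -0.02 and 53.9% lower for all tested genes. The same sign was seen within both numbers for 35 lower and 9 higher members, against 3493 lower and 2699 higher of all 11055 tested genes. A difference of over 1.5-fold within both was seen for 0 of the 91 members and 220 of the 11055 genes. Cox7a1, below the filter, was at -0.70 and -0.72. Quantile normalization between the arrays brought the median to -0.04 and left 60 of 91 below 0.

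**Figure D1:**
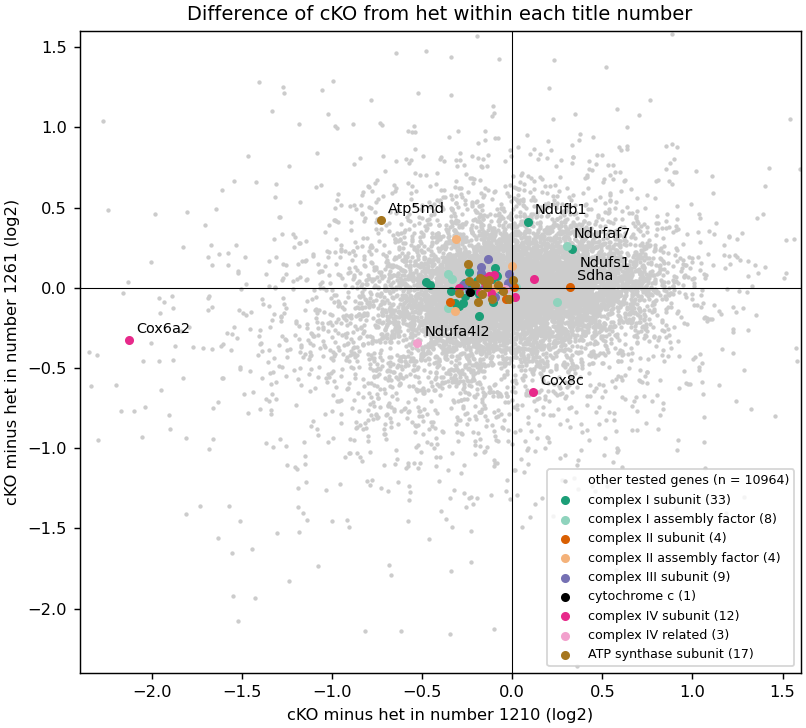
Difference of cKO from het on the log2(signal + 1) scale within the first number, 1 array a group (horizontal), and within the second (vertical), 1 point a gene, members coloured by complex and the 10964 other tested genes in grey, 70 of which lie outside the drawn range. Most members form a compact group left of the vertical line and on the horizontal one, at medians of -0.17 and 0.01.

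How large a change could have been missed differs between the fits. With the number as a block the median standard error of a member was 0.14 and its 95% interval reached 0.27 to each side, a factor of 1.21; for 84 of the 91 members the whole interval lay within 1.5-fold. Without the block the interval reached 0.86, a factor of 1.82, and only 1 member's interval lay within 1.5-fold. The block fit has 1 residual degree of freedom and borrows most of its variance estimate from all probe sets (34.4 prior degrees of freedom), so its intervals can be narrower than the spread between the samples.

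**Figure D2:**
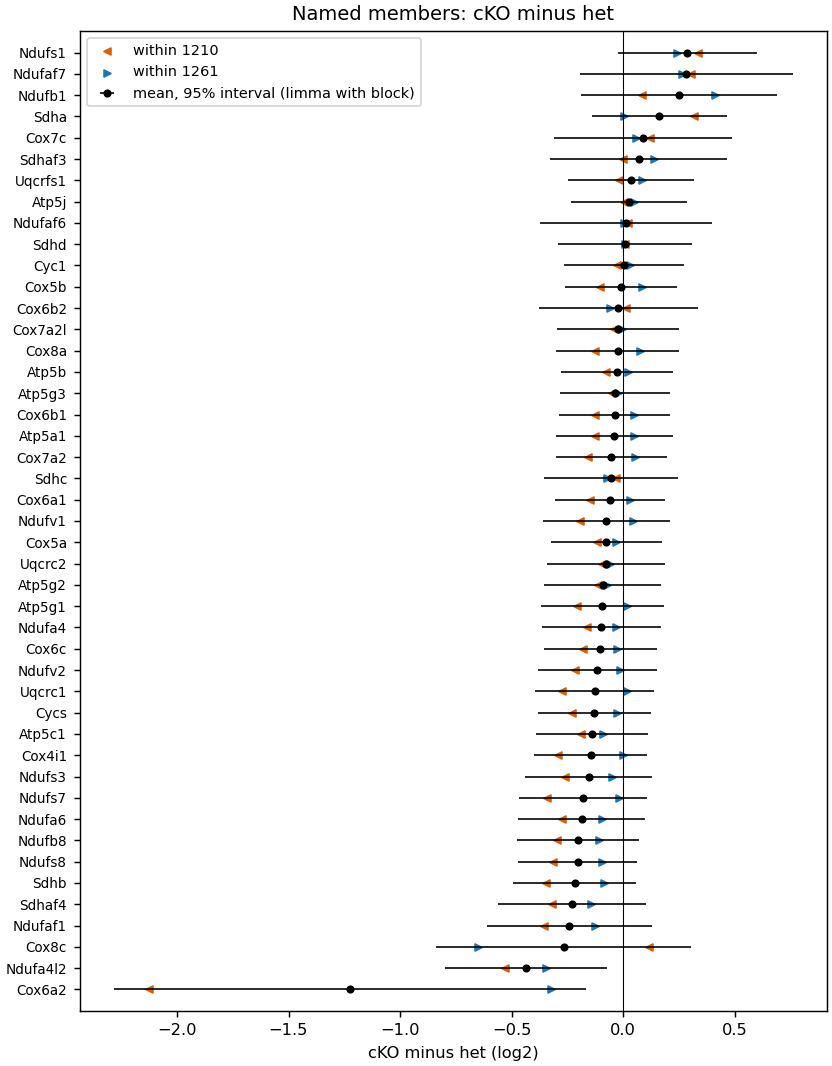
cKO minus het on the log2(signal + 1) scale for the named members that were tested, with the 95% interval of the limma fit with the number as a block (black) and the differences within the first number (orange) and within the second (blue), 1 array a group each. The intervals of Cox6a2, whose cKO signals are near background, and Ndufa4l2 lie below 0, and neither gene passed adjustment.

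Complex I is the entry point for NADH and holds 33 of the tested members. Their differences ran from -0.22 (Ndufa8) to 0.29 (Ndufs1), and 29 of 33 were below 0. Within the second number 13 of them were lower in cKO and 20 higher. Ndufs1, the largest subunit and carrier of iron-sulfur clusters, had a signal of 2274 and 2733 on het_1210 and het_1261 and of 2863 and 3227 on Ko_1210 and KO_1261. Both cKO arrays were above both het arrays, with a difference of 0.29 ± 0.15 (SE, limma with the block; adjusted p = 0.597). It is 1 of 3 members whose cKO arrays lay wholly above het; 8.18% of all tested genes did so.

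The other core subunits of complex I differed in the opposite direction by small amounts on the probe sets used here. Ndufs7 had 9181 and 4892 in het and 7240 and 4828 in cKO, a difference of -0.18 ± 0.14. Its other tested probe set was at -0.04. Ndufs8, like Ndufs7 an iron-sulfur subunit, had 17553.5 and 10626 in het and 14106 and 9950 in cKO, a difference of -0.21 ± 0.13. The other tested probe sets of Ndufs8 were at -0.16, -0.11, -0.04, -0.03 and 0.25, so the value used was the lowest. In both genes the arrays of the first number were the high ones and the groups overlapped. Ndufs3, at -0.15 ± 0.14, and the flavoprotein arm subunits Ndufv1, at -0.08 ± 0.14, and Ndufv2, at -0.12 ± 0.13, did not pass.

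Among the accessory subunits Ndufb8 differed by -0.20 ± 0.14 and Ndufa6 by -0.19 ± 0.14, lower within both numbers. Ndufb1 went the other way: its signal was 490 and 329 in het and 520 and 438 in cKO, a difference of 0.25 ± 0.22 (adjusted p = 0.806, limma with the block), with overlapping groups. The probe set that names Ndufb4 alone had a signal of 20.0 to 36.8 and was not tested, while 2 probe sets that name it beside its copies Ndufb4b and Ndufb4c, 1 of them at 7196 to 11811, are not assigned to any gene here.

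Complex I assembly factors, 8 genes, ran from -0.24 to 0.28, a range close to that of the 33 subunits. Their median signal was 848, against 7263 for the subunits. Ndufaf7, a mitochondrial methyltransferase, had 289 and 295 in het and 357 and 354 in cKO. Its groups did not overlap and differed by 0.28 ± 0.23 (adjusted p = 0.788, limma with the block). Ndufaf1 had 1353 and 788 in het and 1056.5 and 721 in cKO, a difference of -0.24 ± 0.18, lower within both numbers. Ndufaf6 differed by 0.01 ± 0.19.

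Complex II, which also works in the citric acid cycle, had members on both sides of 0. Sdha, the flavoprotein subunit, had 3348 and 4025 in het and 4177 and 4031 in cKO. The groups did not overlap, but the difference was 0.32 within the first number and 0.00 within the second, 0.16 ± 0.15 in all. Sdha's other tested probe set, with signals of 1461 and 1624 in het and 1480 and 1549 in cKO, differed by -0.02.

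Sdhb, the iron-sulfur subunit that binds Sdha, had 12044 and 7281 in het and 9466 and 6861 in cKO, a difference of -0.22 ± 0.14 (adjusted p = 0.679, limma with the block). The membrane anchors Sdhc, at -0.05 ± 0.15, and Sdhd, at 0.01 ± 0.15, lay near 0 on the probe sets used here. Sdhc's other tested probe set, with 746 and 985 in het and 787 and 1413 in cKO, differed by 0.30. Sdhd's, with 2070 and 1193 in het and 1221 and 1123 in cKO, differed by -0.42, and neither passed. Of the assembly factors of complex II, Sdhaf4 differed by -0.23 ± 0.16 and Sdhaf3 by 0.07 ± 0.19, and neither passed.

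Complex III had a median of -0.04 for cKO minus het. It was -0.17 within the first number, where 9 of 9 members were lower, and 0.03 within the second. The 9 complex III members ran from -0.13 (Uqcrb) to 0.03 (Uqcrfs1, the Rieske iron-sulfur protein). Cyc1, which encodes cytochrome c1, had 11331 and 8160 in het and 11129 and 8333 in cKO, a difference of 0.00 ± 0.13. Cycs, the mobile carrier between complexes III and IV, had 28882 and 18428 in het and 24593 and 18073.5 in cKO. In both genes the arrays of the first number were the high ones in either group, and Cycs differed by -0.13 ± 0.12 between the groups. The core proteins Uqcrc1 (-0.13 ± 0.13) and Uqcrc2 (-0.08 ± 0.13) did not pass.

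Complex IV was represented by widely expressed subunits and by tissue isoforms, 11 of the 12 tested subunits being below 0. Within the second number 5 of these subunits were lower in cKO and 7 higher. Cox4i1, the common form of subunit 4, had 30388.5 and 19269 in het and 24779 and 19280 in cKO, a difference of -0.15 ± 0.13. Cox5a (-0.08 ± 0.12), Cox5b (-0.01 ± 0.12), Cox6c (-0.10 ± 0.12), Cox6a1 (-0.06 ± 0.12), Cox6b1 (-0.04 ± 0.12), Cox7a2 (-0.05 ± 0.12) and Cox8a (-0.03 ± 0.14) lay close to 0. None of them passed, and their intervals with the block lay within 1.5-fold.

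Cox6a2, the heart and muscle form of subunit 6a, had the lowest difference of any tested member. Its signal was 144 and 83.0 in het and 32.4 and 66.1 in cKO, so both cKO arrays were below both het arrays, and the lowest lay under the filter. The difference was -1.22, with -2.12 within the first number and -0.32 within the second, and it did not pass. The gene met the filter through the het arrays, since the mean signal of 49.2 in cKO lay below it, so the difference is a description of signals near background. It is the only tested member below het in this way; 10.9% of all tested genes were. The 7 skeletal muscle markers summed to 883 and 816 in het and 873 and 637 in cKO, 4 of them lay below the filter, and their part in the Cox6a2 values was not tested.

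The other tissue isoforms gave little to compare. Cox4i2, the lung and hypoxia form, had signals of 57.6 to 72.4 and was not tested. Cox7a1, a muscle form, had 58.2 and 115 in het and 35.4 and 69.3 in cKO, and Cox8b, another, had 10.4 to 43.3; both lay below the filter, as did Cox7b2. The testis forms Cox6b2, at -0.02 ± 0.18, and Cox8c, at -0.27 ± 0.28 (0.12 within the first number and -0.65 within the second), were above it and did not pass. Cox7c, named for its rise within both numbers and not as a tissue isoform, had signals of 513 to 746 and differed by 0.09 ± 0.20.

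Ndufa4 was named for complex I and was later assigned to complex IV, and Ndufa4l2 is its relative known as a hypoxia-induced gene. Ndufa4 had 14422 and 9338 in het and 12875 and 9122 in cKO, a difference of -0.10 ± 0.13. Ndufa4l2 had 1498 and 1025 in het and 1038 and 807 in cKO. It was lower in cKO within both numbers (-0.53 and -0.34), though Ko_1210 was slightly above het_1261 and the groups overlapped. The difference was -0.44 ± 0.18, with the lowest p of any member (unadjusted p = 0.0195 and adjusted p = 0.389, limma with the block). Cox7a2l, a factor of complex III and IV supercomplexes, differed by -0.02 ± 0.14.

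ATP synthase held 17 members with differences from -0.16 (Atp5h) to 0.03 (Atp5j), 16 of them below 0. Within the second number 6 of the 17 were lower in cKO and 11 higher. The catalytic β subunit gene Atp5b had 24001.5 and 20263 in het and 22724.5 and 20555 in cKO, a difference of -0.03 ± 0.12. The α subunit gene Atp5a1 (-0.04 ± 0.13), the γ subunit gene Atp5c1 (-0.14 ± 0.12) and the 3 genes for the identical c subunit, Atp5g1 (-0.09 ± 0.14), Atp5g2 (-0.09 ± 0.13) and Atp5g3 (-0.04 ± 0.12), did not pass. Atp5md, a small membrane subunit named after its values were seen, had 21780 and 8947 in het and 13149 and 11972 in cKO. Its difference changed sign between the numbers, -0.73 within the first and 0.42 within the second.

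**Figure D3:**
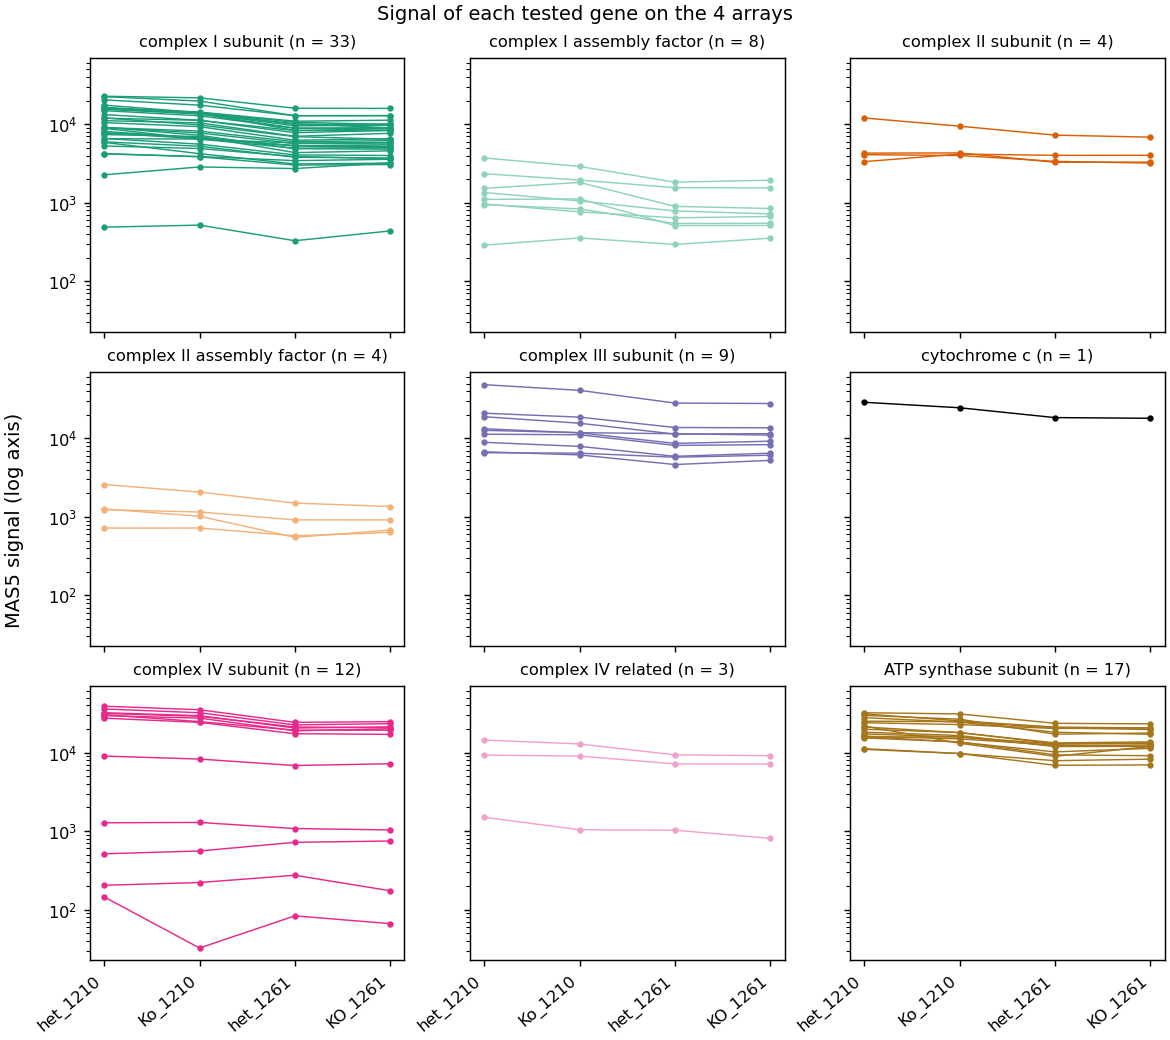
MAS5 signal (log axis) of each tested member on the 4 arrays, 1 line a gene, in panels by complex with the number of genes. Most lines run from higher levels on het_1210 and Ko_1210 to lower levels on het_1261 and KO_1261, while the 2 arrays of a number lie close together.

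The larger difference lay between the title numbers and not between the groups. With limma on group and number, 73 of the 91 members were called lower in the second number than in the first and 0 were called higher, where 19.1% of all tested genes were called lower and 12.8% higher. The median was -0.53, a signal 1.44-fold higher in the first number, with -0.61 in het and -0.43 in cKO; for all tested genes it was -0.13. Both arrays of the second number lay below both of the first for 85 of 91 members, against 41.5% of all tested genes. These counts rest on 1 probe set a gene. Of the 78 other tested probe sets of the members, 50 were called lower in the second number and 4 were called higher. Without a variance trend only 2 members were called lower (2.20%, against 2.02% of all tested genes), so the members' share was then that of the background. It was 13 (14.3% against 4.43%) without het_1261 and 11 (12.1% against 2.69%) without KO_1261, while the median stayed at -0.51 and -0.53 without these arrays. No label gives the numbers a meaning, and the poly-A controls and Xist, the transcript of the inactive X chromosome, moved with them. Xist had a signal of 62.6 and 14338 in het and 115 and 22801.5 in cKO, and the Y-linked Eif2s3y 1485 and 834 in het and 1386 and 3.01 in cKO. Het_1261 had a signal for both transcripts and KO_1261 only for Xist, so the groups differed in sex-linked transcripts within the second number. The part of these transcripts and of the poly-A controls in the differences was not tested.

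**Figure D4:**
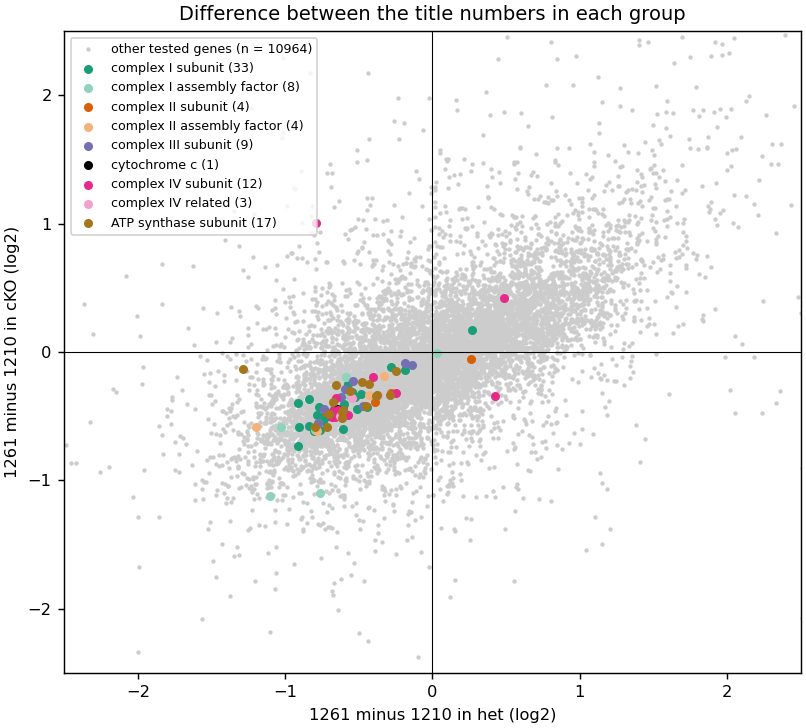
Difference of the second title number from the first on the log2(signal + 1) scale in het (horizontal) and in cKO (vertical), members coloured by complex and the other tested genes in grey, 90 of which lie outside the drawn range. Most members lie in the lower left part, at medians of -0.61 and -0.43.

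The counts by complex were as follows, and differences between complexes were not tested. In complex I 29 of 33 members were called lower in the second number, in ATP synthase 16 of 17 (Atp5b at -0.19 ± 0.12 was the exception), in complex III 7 of 9, among complex IV subunits 7 of 12 and among complex II subunits 2 of 4. On the probe set used here Cycs was lower by 0.55 ± 0.12 on the log2 scale (adjusted p = 0.000732, limma). Its other tested probe sets were at -0.30 and -0.29 and were not called (adjusted p = 0.0765 and 0.101, limma). The strongest values were those of assembly factors: Ndufaf6 at -1.11 ± 0.19, Ndufaf4 at -0.93 ± 0.18 and Sdhaf1 at -0.89 ± 0.19. Ndufaf6 had 1105 and 1121 on het_1210 and Ko_1210 and 514 and 515 on het_1261 and KO_1261, so the arrays of 1 number were nearly equal across the groups. Ndufs1 (0.22 ± 0.15) and Cox7c (0.45 ± 0.20) were higher in the second number in both groups and were not called. In complex II, Sdha was at 0.11 ± 0.15 and Sdhb at -0.60 ± 0.14.

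Among all tested genes the top decile of signal stood apart: the medians of the other 9 deciles lay between -0.14 and -0.06. Of the members, the 12 assembly factors, with a median signal of 889, had a median of -0.68, and the other 79, at 10568, one of -0.53. Genes of these 79 that lay below the top decile went both ways. Cox7c was at 0.45 and Ndufs1 at 0.22, while Ndufb1 was at -0.41 and Ndufa4l2 at -0.45. How the difference of the members varied with signal was not tested. In the top decile of the tested genes by mean signal, from 4094 up, the median of all 1106 genes was -0.29, and 66 members were among them. There 61 of the 66 members were called lower, with a median of -0.55, and 441 of the 1040 other genes, with a median of -0.27; the gap between these medians was not tested. Of the tested genes at or above the members' lower quartile of signal, 44.7% were called lower and 9.83% higher. Under quantile normalization 53 of 91 members were called lower (58.2%, against 25.2% of all tested genes), the median was -0.30, and that of all tested genes was -0.22.

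**Figure D5:**
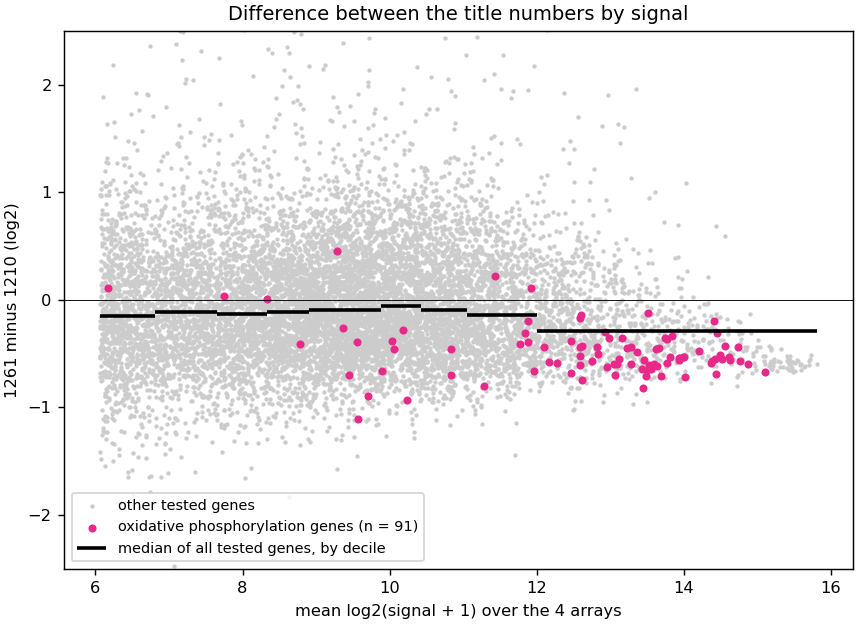
Difference of the second title number from the first (log2) against the mean log2(signal + 1) over the 4 arrays, members in pink, other tested genes in grey (39 outside the drawn range) and the median of all tested genes in each decile of signal as a black bar. The bar lies at -0.29 in the top decile, where 66 of the members lie.

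Members with and without the NRF1-type core in their promoter window had medians close to each other, a difference that was not tested. The 29 tested members with GCANGCGC had a median of -0.10 for cKO minus het and -0.56 for the second number minus the first, and the 46 without it had -0.06 and -0.52. For CCGGAAG the medians of cKO minus het were -0.06 in 22 members with it and -0.08 in 53 without it.

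Other genes of the pathway were not called between cKO and het either, a count near the share of all tested genes. That share was 0% in each direction without the block, and 0.253% higher and 0.615% lower with it. Of 28 tested assembly factors outside the symbol rule, such as Surf1 and Sco1 of complex IV, 0 passed in either fit; their median was -0.05. Of 15 biogenesis regulators 0 passed, and 2, named after their values were seen, had an unadjusted p under 0.05 with the block. So did 980 of all 11055 tested genes. Gabpa, a subunit of GABP, had 1545 and 2850 in het and 2388 and 3028 in cKO (0.36 ± 0.16, adjusted p = 0.477, limma with the block), and the coactivator gene Ppargc1b had 450 and 819 in het and 809 and 888 in cKO (0.48 ± 0.20, adjusted p = 0.411). Between the numbers 3 of the 15 were called lower and 2 higher, set against 19.1% and 12.8% of all tested genes. Nrf1 was higher in the second number by 1.22 on the log2 scale (adjusted p = 2.2e-05, limma) and Gabpa by 0.61 (adjusted p = 0.00331), while the mitochondrial DNA packaging factor Tfam was at -0.46 (adjusted p = 0.0256), the RNA polymerase gene Polrmt at -0.70 and the helicase gene Twnk at -0.52.

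Carriers and neighbouring pathways did not pass either, with 1 exception. A count of 0 in lists of this size is near the share of all tested genes called, as above. The 8 genes for ATP export and the ATPase inhibitor had a median of -0.09; Atpif1, which encodes the inhibitor, had 24070 and 13924 in het and 17950 and 12487 in cKO (-0.29 ± 0.13, adjusted p = 0.454, limma with the block). The 16 citric acid cycle and pyruvate dehydrogenase genes had a median of 0.06 and the 14 glycolytic genes -0.09, and 0 of either passed. Of 18 fatty acid oxidation genes 1 passed: Acadl, a long-chain acyl-CoA dehydrogenase, rose by 0.87 ± 0.18 with the block (adjusted p = 0.00672, limma) but did not pass without it, from 749 and 797 in het to 1517 and 1322 in cKO.

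Ribosomal protein genes were set beside these genes. The 76 mitochondrial ribosomal protein genes had a median of -0.10 for cKO minus het (-0.24 within the first number and 0.02 within the second), and 0 passed. Between the numbers 59 of the 76 were called lower in the second number, with a median of -0.61. The 47 tested cytosolic ribosomal protein genes had a median of -0.11 (-0.20 and -0.02). With the block 2 of them fell, Rpl39 by 1.22 and Rpl39l by 1.54 on the log2 scale (adjusted p = 0.00213 and 0.0074, limma), near-identical copies whose signals may be shared. Between the numbers 40 of the 47 were called lower in the second number with a median of -0.59. Differences between these classes and the oxidative phosphorylation genes were not tested.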

How the data were processed

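The values are array intensity values, 1 per probe set and array, deposited by the authors on a linear scale. The submitters' processing notes name MAS5; its version and settings are not given in the sources used here. The mean with 2% of probe sets trimmed at each end was 500.003 to 500.004 on every array (a common scaling), so only changes relative to it can be seen. The number of arrays, 2 per group, limits the precision. Gene symbols came from the platform annotation: of 45101 probe sets 64 controls were left out, 34945 had 1 symbol, 932 had several and 9160 had none, and the last 2 kinds were tested but named no gene. Of the representatives of the 96 members, 5 end in x_at and 14 in s_at, which can read related transcripts or pseudogenes. Cytosolic ribosomal genes were narrowed by pattern to the ribosomal proteins proper after the data were seen. Lists were matched by the platform's or the current symbol.

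Values were taken as log2(signal + 1), and 22518 probe sets above the median were fitted in R 4.3.3 by lmFit and eBayes of limma 3.58.1, trend on. Tests were two-sided, adjusted by Benjamini-Hochberg and called under 0.05. The main fit had group only. The number as a block was an alternative: same-numbered arrays deviated together (correlation 0.755 across tested probe sets), but with 2 numbers and no label they are not shown to pair animals. The pipeline was tested on simulated data. Members named are the 8 highest and 8 lowest with 1 sign within both numbers, the catalytic core and the tissue isoforms, plus any that passed (0 did). The members and lists were chosen with earlier results of these data known. Figures used matplotlib 3.10.9 in Python 3.11.15.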

Additional observations from a re-analysis of the deposited data

How the results depend on the processing

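With all 4 arrays, 0 of the tested members passed for cKO against het under each alternative run: the replicate block (lowest adjusted p = 0.389, limma), the block with a robust prior or without a variance trend, median centring with and without the block, quantile normalization, log2(signal + 16), no filter, the 75th percentile filter, and the mean over a gene's probe sets. The replicate block changed no call of a member and left their median at -0.08. Over all tested genes it called 28 higher and 68 lower. The counts were 13 and 37 with a robust prior, and 24 and 60 with median centring and the block. Every other run with all 4 arrays, the block without the variance trend among them, called 0 of all tested genes. Those runs could call no member, so nothing is read from their 0. The members' median ranged from -0.08 to -0.04 over all these runs, and 20 members changed sign under quantile normalization. Leaving out 1 array at a time, the members' median went from -0.39 without het_1261 to 0.21 without het_1210, since the numbers were then unbalanced between the groups, and 0 members passed. For the second title number against the first (alternatives chosen after seeing the data), the count of 73 members called lower became 2 without a variance trend, 2.20% of members against 2.02% of all tested genes, so the excess over the background was lost; with 1 array left out, fitted on number alone, it ranged from 11 (12.1% against 2.69%) to 78 (85.7% against 24.5%). With the mean over a gene's probe sets, 65 members were called lower in the second number (71.4%, against 16.9% of all tested genes). In that fit 2 members were called higher, as were 1572 of all 11055 tested genes. MAS5 signals near background limit Cox6a2 and the 5 members below the filter.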
